A study of Mus musculus with 12 samples.

Results

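B cell and germinal centre genes are the transcripts that mark B lymphocytes, the follicles in which they gather, and the germinal centres that form when they respond to antigen. A list of 30 such genes was matched by exact gene symbol to the transcript clusters of the arrays, and 28 of the 30 had a cluster of their own, each a single one, among 21218 clusters for 18820 genes that carried 1 symbol. *Mef2b*, a transcription factor gene of germinal centre B cells, had only a cluster shared with another gene, and *Cd38*, which encodes a surface ectoenzyme, matched no cluster. Neither has a value here.

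RNA came from whole pieces of tissue of saline-perfused mice aged 6 weeks, of the strain C57BL/6J/CBA, on 12 Affymetrix gene arrays, 1 per piece. The 4 groups, with 3 arrays each, were FIRE -/- ileum, FIRE +/+ ileum, FIRE -/- hippocampus and FIRE +/+ hippocampus. FIRE is an enhancer within an intron of *Csf1r*, the gene for the receptor of macrophage colony-stimulating factor, and FIRE -/- mice lack it on both alleles in every cell of the body. The line descends from a single founder made by CRISPR injection of oocytes, so it stands for 1 deletion event. The ileum pieces are described as holding a Peyer's patch, the lymphoid organ of the small intestine. On 4 of the 6 ileum arrays *Ms4a1*, *Cr2* and *Pax5*, genes of follicles and mature B cells, lay near their level in the hippocampus. On those arrays 16 of the 28 genes overlapped the hippocampus, against 41.5% of all clusters. Another 11, *Cd79a* and *Cd79b* among them, lay above every hippocampus array, against 30.6% of all clusters. The follicle chemokine gene *Cxcl13* was above its hippocampus level on all 6 ileum arrays. How much Peyer's patch each piece held is not given. In each tissue the FIRE -/- arrays came from 1 male and 2 females and the FIRE +/+ arrays from 2 males and 1 female by their labels. The labels do not tie the pieces to individual mice. Arrays are called by the codes in their titles: F09, G09 and H09 for FIRE -/- ileum, C09, D09 and E09 for FIRE +/+ ileum, A09, B09 and H07 for FIRE -/- hippocampus, and E07, F07 and G07 for FIRE +/+ hippocampus.

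B cells recognise antigen through a membrane immunoglobulin that signals through CD79A and CD79B, with CD21 and CD81 in a co-receptor and the transcription factors EBF1 and PAX5 holding their identity. In Peyer's patches, B cells fill follicles organised by lymphotoxin and CXCL13, and germinal centres under BCL6 are nearly always present there because the gut supplies antigen without pause. The healthy brain parenchyma holds very few B cells. Several of the listed genes are also used by other cells: *Cd37*, *Cd72*, *Cd86* and *Gpr183* by macrophages and dendritic cells, *Cr2* and *Fcer2a* by follicular dendritic cells, *Bcl6* by neurons and follicular helper T cells, and *Spn* by T cells and plasma cells.

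All values are log2 signals from robust multi-array averaging (RMA), so a difference of 1 is a doubling of signal, and the medians of the arrays lay between 4.29 and 4.46. Marker genes followed the tissue labels. All 5 ileal epithelium genes were higher in the ileum and all 5 hippocampal neuron genes lower. *Csf1r* was at 3.58, 3.69 and 3.65 in FIRE -/- hippocampus, against 8.34, 8.31 and 8.15 in FIRE +/+ hippocampus. In the ileum it was at 6.44, 7.53 and 6.86 in FIRE -/- mice, against 7.41, 8.17 and 7.39 in FIRE +/+ mice, so the ranges met. Sex-linked transcripts matched the labelled sex on 11 of 12 arrays, the exception being B09, labelled female. In whole tissue, fewer B cells and less RNA per B cell cannot be told apart.

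On 2 of the 6 ileum arrays the B cell genes stood far above their level on the others, and these 2 were of opposite genotype. *Ms4a1*, the gene of CD20 on mature B cells, was at 7.68, 2.32 and 2.14 on the FIRE -/- arrays F09, G09 and H09, against 2.68, 7.66 and 2.50 on the FIRE +/+ arrays C09, D09 and E09. F09 and D09 were therefore taken as the arrays with a *Ms4a1* signal above 6, and G09, H09, C09 and E09 as those below it. This division rests on a measured gene, so the arrays on either side are no groups of the study, and F09 and D09 were not tested against the other 4. Of the 27 remaining genes, 26 were higher on both F09 and D09 than on each of the other 4 ileum arrays, where 6.68% of all clusters were. With a gap of at least 1 log2 unit, 19 of these 27 were, against 0.66% of all clusters. The genes were listed because they mark one cell type and one structure, so their moving together among pieces of tissue is a single observation, not 27.

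**Figure D1:**
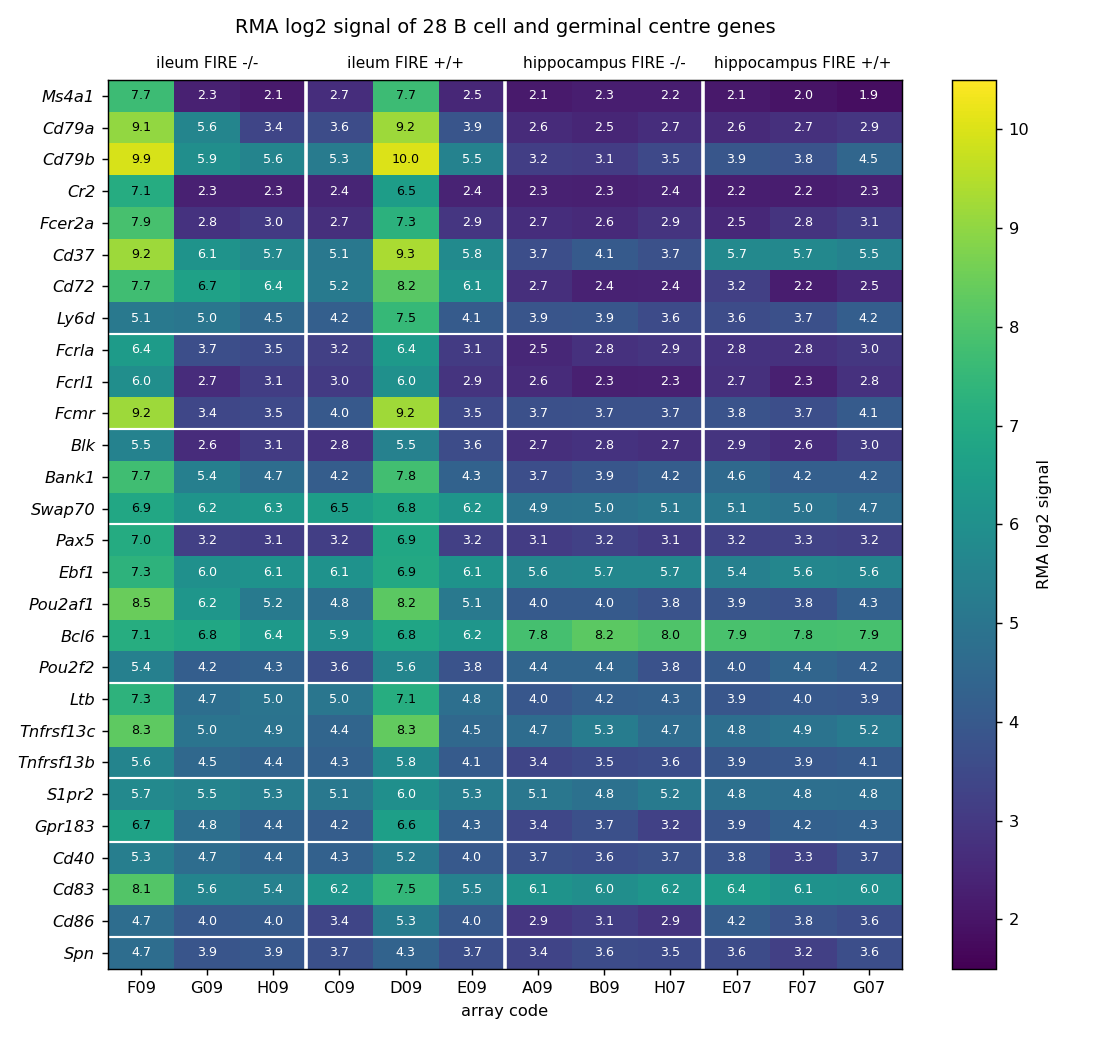
RMA log2 signal (colour and printed value) of 28 B cell and germinal centre genes, in rows grouped by role with white lines between roles, on 12 arrays in columns, 3 per tissue and genotype. F09 among the FIRE -/- ileum arrays and D09 among the FIRE +/+ ileum arrays are bright for most genes (*Cd79b* at 9.94 and 10.03), and no other column is.

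The antigen receptor genes showed the split most plainly. *Cd79b*, a signalling chain of the B cell receptor, was at 9.94, 5.94 and 5.57 on the FIRE -/- arrays F09, G09 and H09, against 5.26, 10.03 and 5.49 on the FIRE +/+ arrays C09, D09 and E09. Its partner *Cd79a* was at 9.05, 5.59 and 3.37 in FIRE -/- ileum, against 3.59, 9.18 and 3.87 in FIRE +/+ ileum. For both genes the groups overlapped throughout, and the *Cd79a* value of G09 lay between those of the other low arrays and those of F09 and D09.

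*Cr2*, which encodes the complement receptor CD21 of the co-receptor and of follicular dendritic cells, was at 7.06, 2.32 and 2.30 in FIRE -/- ileum, against 2.44, 6.52 and 2.40 in FIRE +/+ ileum. *Fcer2a*, for the low-affinity IgE receptor CD23, was at 7.87, 2.81 and 3.02 in FIRE -/- ileum, against 2.70, 7.30 and 2.92 in FIRE +/+ ileum. On the 4 low arrays these genes lay within 0.14 and 0.32 log2 units of each other, while F09 stood above the next FIRE -/- array by 4.74 and 4.85, and D09 above the next FIRE +/+ array by 4.08 and 4.38. *Cd37*, for a tetraspanin of B cells and other leukocytes, was at 9.17, 6.11 and 5.73 in FIRE -/- ileum, against 5.12, 9.35 and 5.81 in FIRE +/+ ileum. *Cd72*, for an inhibitory co-receptor, was at 7.74, 6.65 and 6.37 in FIRE -/- ileum, against 5.17, 8.18 and 6.08 in FIRE +/+ ileum. *Cd37* kept a gap of more than 3 log2 units on both high arrays, whereas for *Cd72* the FIRE -/- gap was 1.08.

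*Ly6d*, which encodes a surface protein first expressed as lymphoid progenitors turn to the B lineage, was the exception among the surface genes. It was at 5.13, 5.04 and 4.55 in FIRE -/- ileum, against 4.22, 7.52 and 4.09 in FIRE +/+ ileum. Only D09 was high, and F09 lay 0.085 above G09.

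The Fc receptor-like genes followed the split. *Fcmr*, for the IgM Fc receptor, was at 9.19, 3.41 and 3.50 in FIRE -/- ileum, against 4.02, 9.21 and 3.49 in FIRE +/+ ileum, with gaps on F09 of 5.69 and on D09 of 5.19. *Fcrla*, for an intracellular immunoglobulin-binding protein, was at 6.43 on F09 and 6.38 on D09 and between 3.08 and 3.67 on the other 4. *Fcrl1*, for an activating receptor of B cells, was at 5.96 on F09 and 6.02 on D09 and between 2.66 and 3.14 on the others.

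Signalling and transcription factor genes differed in how far F09 and D09 stood apart. *Blk*, for a Src-family kinase below the B cell receptor, was at 5.48 on F09 and 5.45 on D09, and between 2.63 and 3.59 elsewhere in the ileum. *Bank1*, for a scaffold of B cell receptor signalling, was at 7.74, 5.39 and 4.73 in FIRE -/- ileum, against 4.17, 7.79 and 4.34 in FIRE +/+ ileum. *Swap70*, for a guanine nucleotide exchange factor of activated B cells, was at 6.90 on F09 and 6.82 on D09 but already between 6.16 and 6.50 on the other 4, so its gap was small.

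*Pax5*, the factor that commits cells to the B lineage, was at 7.05 on F09 and 6.87 on D09, and its values on the other 4 ileum arrays, from 3.15 to 3.21, spread by only 0.06. *Ebf1*, which acts before *Pax5* and is also expressed in stromal cells, was at 7.32 on F09 and 6.93 on D09 and from 6.01 to 6.11 on the others. *Pou2af1*, for a co-activator of octamer-binding factors that germinal centres need, was at 8.46, 6.24 and 5.16 in FIRE -/- ileum, against 4.76, 8.22 and 5.13 in FIRE +/+ ileum. *Pou2f2*, for the octamer-binding factor OCT2, was at 5.43 on F09 and 5.60 on D09 and from 3.61 to 4.30 on the others. All 4 of these genes were highest on F09 and D09, and G09 stood clearly above the remaining low arrays for *Pou2af1* alone.

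*Bcl6*, the repressor that germinal centre B cells and follicular helper T cells require, was the gene that did not follow the split. It was at 7.10, 6.85 and 6.36 in FIRE -/- ileum, against 5.87, 6.78 and 6.22 in FIRE +/+ ileum, so G09 exceeded D09. *S1pr2*, which encodes the receptor that confines B cells to germinal centres, was at 5.72, 5.51 and 5.33 in FIRE -/- ileum, against 5.10, 5.99 and 5.31 in FIRE +/+ ileum. Its values on F09 and D09 were the highest. After *Ly6d*, these 2 genes had the smallest gaps on F09 of all 28, 0.21 for *S1pr2* and 0.25 for *Bcl6*.

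Among genes for survival receptors and tissue organisation, *Tnfrsf13c*, for the BAFF receptor, was at 8.27 on F09 and 8.34 on D09 and from 4.42 to 4.97 on the others. *Tnfrsf13b*, for the BAFF and APRIL receptor TACI, was at 5.57 on F09 and 5.76 on D09, and from 4.07 to 4.55 elsewhere. *Ltb*, for lymphotoxin beta, was at 7.31 on F09 and 7.10 on D09 and from 4.74 to 5.04 on the others. *Gpr183*, for the oxysterol receptor that moves B cells to the outer follicle, was at 6.67 on F09 and 6.58 on D09 and from 4.15 to 4.78 on the others. All 4 were highest on F09 and D09. For *Ltb* the low arrays of both genotypes were mixed, and for the other 3 genes G09 and H09 lay above C09 and E09.

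The activation genes and the shared leukocyte gene had gaps of unequal size. *Cd83* was at 8.08, 5.56 and 5.44 in FIRE -/- ileum, against 6.20, 7.45 and 5.46 in FIRE +/+ ileum. *Cd40*, for the receptor of T cell help, was at 5.34, 4.72 and 4.44 in FIRE -/- ileum, against 4.30, 5.18 and 4.0 in FIRE +/+ ileum. *Cd86*, for a co-stimulatory ligand, was at 4.71, 4.02 and 4.04 in FIRE -/- ileum, against 3.39, 5.29 and 4.0 in FIRE +/+ ileum. The order within the pair differed, with F09 the higher for *Cd83* and *Cd40* and D09 for *Cd86*. *Spn*, for CD43, was at 4.72 on F09 and 4.35 on D09 and from 3.66 to 3.94 on the others. Over all 28 genes F09 exceeded the higher of G09 and H09 by a median of 2.34 (range 0.085 to 5.69), against a median of -0.12 over all clusters. D09 exceeded the higher of C09 and E09 by a median of 2.63 (0.32 to 5.30), against -0.11 over all clusters. Both medians include *Ms4a1*, the gene by which F09 and D09 were set apart, with gaps of 5.37 and 4.99 that follow from that choice.

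**Figure D2:**
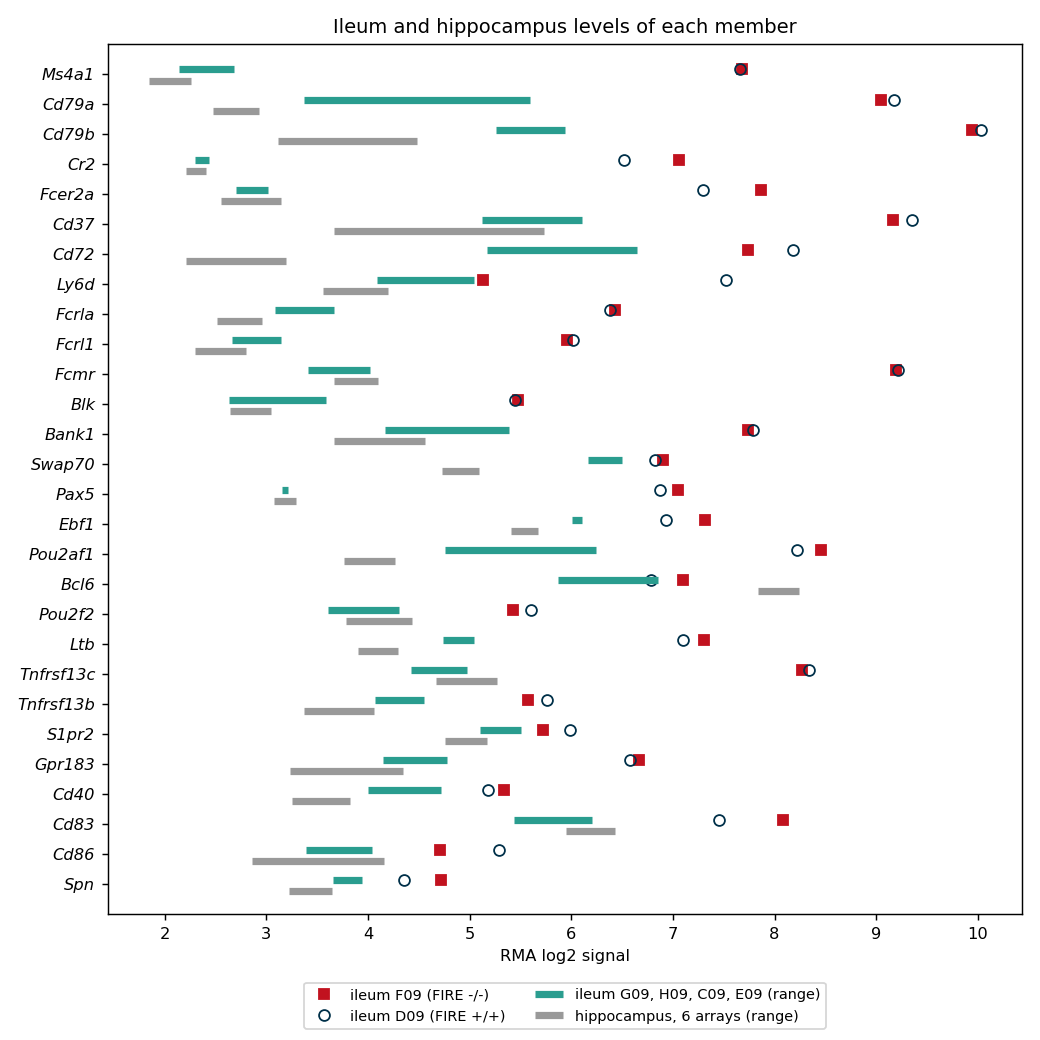
RMA log2 signal (horizontal axis) of each gene on the ileum arrays F09 (red squares) and D09 (open circles), with the range over the other 4 ileum arrays (green bars) and over all 6 hippocampus arrays (grey bars). The gap to F09 and D09 is widest for genes such as *Fcmr* (9.19 and 9.21), and *Bcl6* is the gene whose hippocampus range lies above its ileum values.

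Other lists moved with F09 and D09 to different degrees. Of the other B cell receptor pathway genes, 21 of 24 had a cluster. Of these 21, 17 were higher on both arrays than on the other 4, 10 of them by 1 log2 unit or more. Of all clusters 6.68% were, and 0.66% by 1 log2 unit or more. *Cxcr5*, the receptor that draws B cells into follicles, was at 6.65, 2.60 and 2.58 in FIRE -/- ileum, against 3.19, 6.15 and 2.68 in FIRE +/+ ileum. *Cd22*, for an inhibitory lectin of B cells, was at 7.01, 4.65 and 4.18 in FIRE -/- ileum, against 3.86, 7.14 and 3.92 in FIRE +/+ ileum. These followed *Ms4a1* closely, but *Ighm*, the IgM heavy chain gene, was at 7.91, 8.04 and 6.54 in FIRE -/- ileum, against 6.36, 8.35 and 8.10 in FIRE +/+ ileum, and did not. Of the other germinal centre genes, 17 of 22 had a cluster. Of these 17, 6 were higher on both arrays, 4 of them by 1 log2 unit or more, a smaller part but above the same shares. *Gcsam*, for a germinal centre signalling protein, was at 5.97, 3.46 and 3.11 in FIRE -/- ileum, against 2.95, 5.37 and 2.93 in FIRE +/+ ileum. *Il21r*, for the receptor of the helper cytokine IL-21, was at 6.97, 3.74 and 3.11 in FIRE -/- ileum, against 4.19, 7.0 and 3.75 in FIRE +/+ ileum. The genes of that list that did not follow include *Mki67*, *Ezh2*, *Ung* and *Fas*, which dividing or other cells of the gut also express, and *Rgs13*.

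Markers of the other cells of lymphoid tissue moved along. All 8 measured genes of follicular dendritic cells and lymphoid stroma were higher on both F09 and D09, 7 of them by 1 log2 unit or more, although *Cr2* and *Fcer2a* are on this list too. *Cxcl13*, the chemokine of B cell follicles, was at 10.34, 7.99 and 6.73 in FIRE -/- ileum, against 6.50, 10.70 and 6.17 in FIRE +/+ ileum. All 9 measured T cell genes were higher on both arrays, none by as much as 1 log2 unit. Higher on both arrays were also 2 of 8 plasma cell genes (*Irf4* and *Mzb1*), 3 of 7 dendritic cell genes and none of 5 epithelial genes. Of all clusters 6.68% were. *Jchain*, the joining chain of secreted IgA and IgM, was at 8.04, 9.23 and 8.86 in FIRE -/- ileum, against 8.18, 9.30 and 8.68 in FIRE +/+ ileum, and F09 was its lowest array. The part of these other cell types in the values of the B cell genes was not tested.

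**Figure D3:**
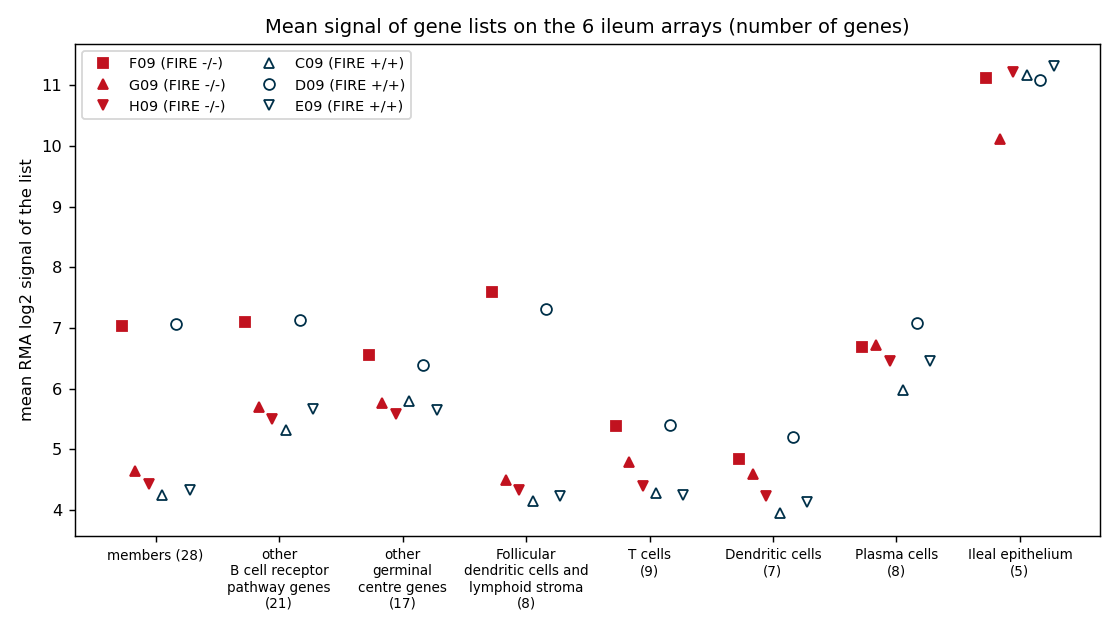
Mean RMA log2 signal (vertical axis) of the 28 genes and of 7 other gene lists on the 6 ileum arrays, FIRE -/- filled red and FIRE +/+ open blue, with the number of measured genes in brackets. For the 28 genes F09 (7.04) and D09 (7.07) lie above the other 4 (4.25 to 4.64), as they do for the B cell receptor, lymphoid stroma, germinal centre and T cell lists and, by the smallest step, the dendritic cell list. The epithelial mean is lowest on G09 (10.12), through *Fabp6* and *Slc10a2*.

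The genotypes could be set side by side at a like *Ms4a1* signal, as F09 and D09 are 1 array of each. This comparison has 1 array per genotype and therefore no test. F09 minus D09 had a median of 0.03 over the 28 genes (range -2.40 to 0.63), and 15 of the 28 were above 0. Over all clusters the median was -0.03 and 45.8% were above 0. The absolute difference had a median of 0.18 for the 28 genes and 0.21 for all clusters, so by this median the 2 pieces were no further apart in the B cell genes than over all clusters. The pair was matched on *Ms4a1*, itself one of the 28. Closeness of genes that move with it is partly built in by that match and is no measure of genotype. A difference of 1 log2 unit or more was seen for 1 gene, *Ly6d* at -2.40, where 2.25% of all clusters had one. Next in size were *Cd83* at 0.63, *Cd86* at -0.58, *Fcer2a* at 0.57 and *Cr2* at 0.55.

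Among the 4 arrays with low *Ms4a1*, the mean of G09 and H09 minus the mean of C09 and E09 had a median of 0.30 over the 28 genes (range -0.36 to 0.88), with 18 of 28 above 0, while over all clusters the median was -0.0015 and 49.6% were above 0. Both FIRE -/- arrays exceeded both FIRE +/+ arrays for 15 of the 28 genes, against 16.9% of all clusters. They were *Cd79b*, *Cd72*, *Ly6d*, *Fcrla*, *Bank1*, *Pou2af1*, *Pou2f2*, *Bcl6*, *Tnfrsf13c*, *Tnfrsf13b*, *S1pr2*, *Gpr183*, *Cd40*, *Cd86* and *Spn*. The largest differences were *Cd72* at 0.88, *Bank1* at 0.81 and *Pou2af1* and *Cd79a* each at 0.75. With H09 as the only FIRE -/- array they were 0.74, 0.48, 0.21 and, for *Cd79a*, -0.36. Both FIRE -/- arrays were below both FIRE +/+ arrays for *Ms4a1* and *Cr2*, against 18.1% of all clusters. Other B cell genes fell on both sides. Among the 15, *Tnfrsf13c* was at 0.47, *Fcrla* at 0.45 and *Cd79b* at 0.38. Not among them were *Pax5* at -0.01, *Fcmr* at -0.30, *Blk* at -0.36 and *Fcer2a* at 0.11. On the low arrays *Pax5*, *Fcmr*, *Blk*, *Fcer2a* and also *Tnfrsf13c* overlapped the hippocampus.

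The difference was larger on G09 than on H09. G09 was the highest of the 4 low arrays for 14 of the 28 genes, against 24.8% of all clusters. It was also the highest for 8 of 9 T cell genes, 6 of 7 microglial genes and 5 of 7 dendritic cell genes. The same held for 5 of 8 plasma cell genes, 4 of 5 hippocampal neuron genes and 10 of 21 other B cell receptor pathway genes. It held for 5 of 17 other germinal centre genes, 1 of 8 lymphoid stroma genes and 1 of 5 epithelial genes. On the same array *Fabp6*, the bile acid binding protein of ileal enterocytes, was at 9.26, against 10.91 to 11.59 on the other ileum arrays, and *Slc10a2*, the bile acid transporter, was at 5.58, against 8.18 to 9.79. The other 3 epithelial genes were not lower on G09: *Vil1* (11.15) and *Muc2* (11.80) lay within the range of the other ileum arrays and *Lyz1* (12.82) was at its highest. The part of the makeup of this piece in the difference was not tested. H09 alone minus the mean of C09 and E09 had a median of 0.19, and H09 was above both for 17 of the 28 genes, against 32% of all clusters. In limma without F09 and D09 no cluster was called, and none without G09 as well, which leaves 1 FIRE -/- array, assumed to vary like the others. At an unadjusted p under 0.05, 6 of the 28 genes were higher without F09 and D09, where 2.79% of all clusters were, and 1 (*Pou2f2*) without G09 as well, where 2.46% were.

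**Figure D4:**
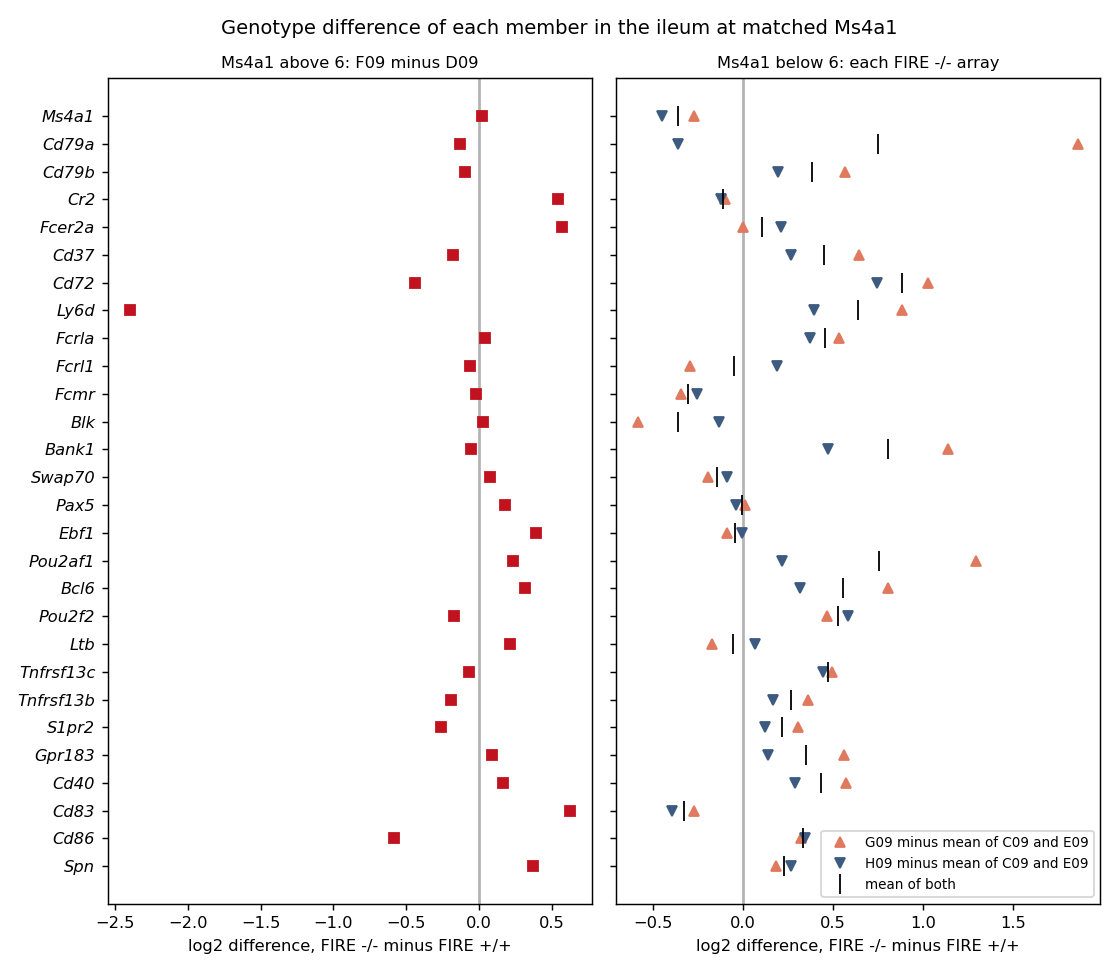
Log2 difference (horizontal axis), FIRE -/- minus FIRE +/+, of each gene in the ileum, for F09 minus D09 (left, squares) and, on the arrays with low *Ms4a1* (right), for G09 and H09 each minus the mean of C09 and E09 (triangles) and for the mean of both (ticks). On the left 1 gene, *Ly6d*, passes 1 log2 unit, and on the right *Cd79a* is the gene where G09 and H09 are furthest apart.

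In the design of the study, 3 FIRE -/- against 3 FIRE +/+ ileum arrays, the limma fit made here called no gene. Of all clusters 0% were called higher and 0% lower (limma, Benjamini-Hochberg adjusted p under 0.05), 393 were higher and 327 lower at an unadjusted p under 0.05, and the one-way test without moderation called 0 as well. None of the 28 genes reached an unadjusted p under 0.05. Their median log2 fold change was 0.17, with 21 of 28 above 0, against a median of -0.01 and 47.1% above 0 over all clusters. The largest were *Pou2af1* at 0.58 (standard error 1.11), *Bank1* at 0.52 (1.13) and *Bcl6* at 0.48 (0.27), each with a limma adjusted p of 0.999. For *Ms4a1* the 95% confidence interval ran from -4.67 to 4.20, so this comparison leaves large differences in either direction possible. No gene had all FIRE -/- arrays above all FIRE +/+ arrays (3.52% of all clusters had) or all below (4.52%).

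Single arrays decided that median. Without the FIRE -/- array F09 it was -0.56, and without the FIRE +/+ array D09 it was 1.01. With *Ms4a1* above or below 6 as a block, no gene passed the adjusted threshold. Among the 28, *Bcl6*, at 0.48 (standard error 0.18), and *Spn*, at 0.28 (0.11), had the only unadjusted p under 0.05 (limma, 0.034 and 0.043, adjusted p = 0.9995 for each). Of all 21218 clusters, 403 were higher and 314 lower at that unadjusted threshold. The block was set by *Ms4a1*, itself one of the 28, and takes up the spread of genes that move with it. No conclusion is therefore drawn from the p-values of *Bcl6* and *Spn*. For *Bcl6* and *Spn*, as for *Fcrla*, *Pou2af1*, *Gpr183* and *Cd40*, F09 exceeded D09 while G09 and H09 each exceeded C09 and E09. The excess of F09 was only 0.04 for *Fcrla* and 0.09 for *Gpr183*. For the rest of the 15 genes with G09 and H09 above C09 and E09, D09 exceeded F09. Taken singly, 45.8% of all clusters had F09 above D09, and 16.9% had G09 and H09 above C09 and E09. The share of all clusters with both together was not counted.

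In the hippocampus, 1 of the 28 genes was lower in FIRE -/- mice. *Cd37* was at 3.67, 4.06 and 3.74 on the FIRE -/- arrays A09, B09 and H07, against 5.73, 5.69 and 5.48 on the FIRE +/+ arrays E07, F07 and G07. The groups did not overlap, and *Cd37* fell by 1.81 on the log2 scale (limma, standard error 0.13, adjusted p = 0.000521). Across all clusters 95 were called lower, or 0.448%, and 0% were called higher (6 of the 28 genes, *Cd37* included, were lower at an unadjusted p under 0.05, against 2.95% of all clusters). The call on *Cd37* rested on the pooling of variance within the tissue: the one-way test gave an adjusted p of 0.106, and a fit of all 12 arrays, whose ileum arrays spread widely for this gene, one of 0.9999.

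Another 5 of the 28 genes had every FIRE -/- array below every FIRE +/+ array without passing the threshold, so that 6 were below in all, against 5.2% of all clusters. *Cd86* was at 2.93, 3.14 and 2.85 in FIRE -/- hippocampus, against 4.16, 3.82 and 3.64 in FIRE +/+ hippocampus (log2 fold change -0.90, standard error 0.15, limma adjusted p = 0.0635). *Cd79b* was at 3.17, 3.11 and 3.48 in FIRE -/- hippocampus, against 3.92, 3.82 and 4.48 in FIRE +/+ hippocampus (-0.82, standard error 0.19, limma adjusted p = 0.303). Both groups of values lay near or below the median signal of the arrays. *Gpr183* was at 3.40, 3.70 and 3.24 in FIRE -/- hippocampus, against 3.88, 4.25 and 4.34 in FIRE +/+ hippocampus. *Tnfrsf13b* was at 3.37, 3.53 and 3.61 in FIRE -/- hippocampus, against 3.92, 3.94 and 4.06 in FIRE +/+ hippocampus. *Bank1* was at 3.67, 3.90 and 4.17 in FIRE -/- hippocampus, against 4.56, 4.24 and 4.21 in FIRE +/+ hippocampus, with 0.04 between the nearest arrays. *Ms4a1* was the 1 gene with every FIRE -/- array above every FIRE +/+ array, which 4.46% of all clusters were, at 2.15, 2.26 and 2.24 in FIRE -/- hippocampus, against 2.13, 1.98 and 1.85 in FIRE +/+ hippocampus.

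*Cd79a* and *Pax5* did not separate the hippocampi. *Cd79a* was at 2.61, 2.48 and 2.67 in FIRE -/- hippocampus, against 2.57, 2.74 and 2.93 in FIRE +/+ hippocampus, and *Pax5* at 3.11, 3.23 and 3.07 in FIRE -/- hippocampus, against 3.23, 3.29 and 3.20 in FIRE +/+ hippocampus. Both genotypes overlapped for each. The median log2 fold change of the 28 genes was -0.09, against 0.01 over all clusters. Of the other B cell receptor pathway genes 5 of 21 were lower in FIRE -/- hippocampus: *Cd180* at -2.71, *Fcgr2b* at -1.03, *Pik3ap1* at -0.90, *Vav1* at -0.88 and *Ptpn6* at -0.84, genes that myeloid cells also express. Of the other germinal centre genes 1 of 17 was lower, *Irf8*, a transcription factor of B cells and of the microglial lineage, at -1.66. Beside these, 6 of 7 measured microglial genes were called lower and all 7 had no overlap, with a median of -2.56 and mean signals of 4.16, 3.93 and 4.03 in FIRE -/- hippocampus, against 6.84, 6.79 and 6.60 in FIRE +/+ hippocampus. Their part in the lower *Cd37* signal was not tested. The FIRE -/- array H07 shares the 07 in its code with the 3 FIRE +/+ arrays, and its *Cd37* value of 3.74 lay with the other FIRE -/- arrays.

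**Figure D5:**
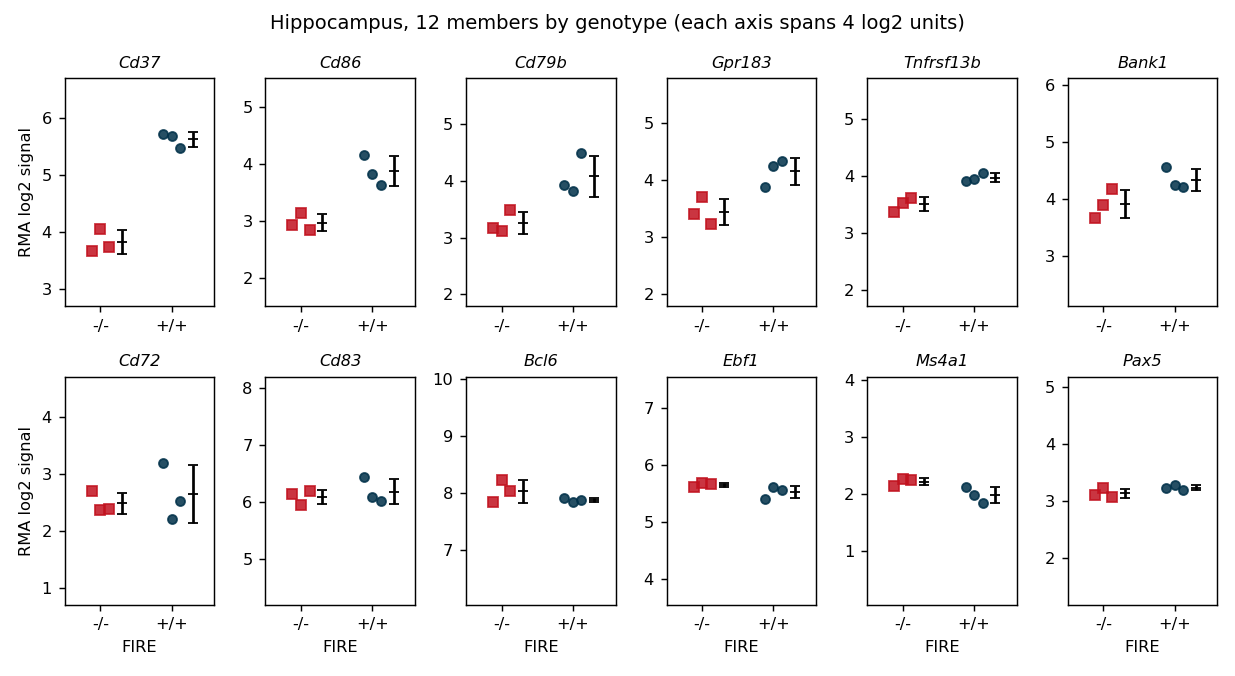
RMA log2 signal (vertical axes, each spanning 4 units) of 12 of the genes in the hippocampus, FIRE -/- (squares) left of FIRE +/+ (circles), with the mean and SD of 3 arrays beside the points. *Cd37* shows the widest separation (-1.81), the other 5 genes of the top row separate without passing the threshold, and *Cd72*, *Cd83*, *Bcl6*, *Ebf1* and *Pax5* overlap.

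Set against the hippocampus, most of the genes were higher in the ileum. Of the 28, 17 were called higher and 1 lower (limma, all 12 arrays), where 36.1% of all clusters were higher and 32.2% lower. Their median difference was 1.39, against 0.05 over all clusters. *Cd72* had the largest difference at 4.13 (standard error 0.43, adjusted p = 2.51e-06), with hippocampus values from 2.21 to 3.20. *Swap70*, at 1.51 (standard error 0.14, adjusted p = 7.88e-07), had the smallest adjusted p of the 28. *Bcl6* was the gene that was lower in the ileum, at -1.43 (standard error 0.16, adjusted p = 4.35e-06), with hippocampus values from 7.84 to 8.24. The 10 genes not called were *Ms4a1*, *Cr2*, *Fcer2a*, *Pax5*, *Blk*, *Fcmr*, *Fcrl1*, *Tnfrsf13c*, *Cd83* and *Pou2f2*, most of which had their high values on F09 and D09 alone. The calls on *Bank1*, *Fcrla* and *Ly6d* had adjusted p between 0.033 and 0.043 and ended when single arrays, F09 among them, were left out.

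Every ileum array was above every hippocampus array for 11 genes, against 28.4% of all clusters: *Cd79a*, *Cd79b*, *Ebf1*, *Pou2af1*, *Ltb*, *Fcrla*, *Tnfrsf13b*, *Cd72*, *Cd40*, *Swap70* and *Spn*. The same 11 stood above every hippocampus array on the 4 ileum arrays with low *Ms4a1*, against 30.6% of all clusters. On those 4 arrays 16 genes, *Ms4a1* included, overlapped the hippocampus, where 41.5% of all clusters did. *Cr2*, for example, lay between 2.30 and 2.44 on the 4 ileum arrays and between 2.21 and 2.41 in the hippocampus, and *Pax5* between 3.15 and 3.21 on those ileum arrays and between 3.07 and 3.29 in the hippocampus. Without F09 and D09 the median difference was 0.46, and 19 genes were called higher, against 35.8% of all clusters, and 2 lower, *Bcl6* and *Cd83*, against 31.7%.

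Whether the genotype effect differed between the tissues was tested in the fit of all 12 arrays, where 0.0895% of all clusters had a higher effect in the ileum and 0% a lower one. None of the 28 genes passed. For *Cd37* the effect in the ileum minus that in the hippocampus was 2.05 (standard error 1.43, limma adjusted p = 0.9997). Without F09 and D09 it was 2.26 (standard error 0.30, limma adjusted p = 0.0112), where 0.292% of all clusters were called higher and 0.0141% lower. Those 2 arrays were set apart by *Ms4a1* and were also the highest for *Cd37* in the ileum. Leaving them out therefore narrows its spread by choice, and no conclusion is drawn from that p.

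Promoters are shown to give the letters in front of some of the listed genes. A part of these letters in the joint movement of the genes among the ileum pieces was not tested. Of the 30 genes 23 matched RefSeq starts, with 27 promoters of 250 bases before to 50 after the start on GRCm38.p6. They were searched on both strands for ATGCAAAT (the octamer of OCT factors), CCCNNGGG (an EBF-type site), CAGGTG (an E-box) and GAGGAA (an ETS or PU.1-type site). The octamer was found in 1 of the 27, that of *Mef2b*, and in 1.74% of 32851 promoters of all genes, and the EBF-type letters in 2 of the 27 and 13.7% of all. The E-box stood in 12 of the 27 (44.4%) and in 20.2% of all, and the ETS-type letters in 12 of the 27 (44.4%) and in 28.3% of all. A match is a run of letters, not a bound site. The 250 bases before the start are given 5′ to 3′ on the gene's strand for the 2 measured genes with the most matches and the next 2 in alphabetical order, with every match in capitals: *Cd37* (chr7:45238840-45239089, minus strand), *Spn* (chr7:127137824-127138073, minus), *Bank1* (chr3:136326067-136326316, minus) and *Cd79a* (chr7:24897247-24897496, plus).
Cd37: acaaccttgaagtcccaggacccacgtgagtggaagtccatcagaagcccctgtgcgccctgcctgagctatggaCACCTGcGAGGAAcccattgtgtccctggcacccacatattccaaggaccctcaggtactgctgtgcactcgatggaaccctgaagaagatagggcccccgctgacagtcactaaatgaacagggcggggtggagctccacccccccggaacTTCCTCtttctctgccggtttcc
Spn: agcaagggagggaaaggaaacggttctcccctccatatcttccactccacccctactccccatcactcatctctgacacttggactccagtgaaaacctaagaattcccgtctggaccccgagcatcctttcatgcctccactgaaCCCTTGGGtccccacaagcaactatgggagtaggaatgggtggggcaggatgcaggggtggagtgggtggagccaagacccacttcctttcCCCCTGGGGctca
Bank1: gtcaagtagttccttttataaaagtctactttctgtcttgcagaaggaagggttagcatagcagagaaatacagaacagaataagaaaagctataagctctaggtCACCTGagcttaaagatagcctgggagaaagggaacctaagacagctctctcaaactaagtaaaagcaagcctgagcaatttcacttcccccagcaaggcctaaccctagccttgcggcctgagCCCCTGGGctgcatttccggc
Cd79a: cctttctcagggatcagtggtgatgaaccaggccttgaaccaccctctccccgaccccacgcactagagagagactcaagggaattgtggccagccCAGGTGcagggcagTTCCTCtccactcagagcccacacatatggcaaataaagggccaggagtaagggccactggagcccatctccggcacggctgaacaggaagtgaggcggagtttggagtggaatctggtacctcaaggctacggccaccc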

How the data were processed

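Total RNA from hippocampus and from ileum, described as holding a Peyer's patch, was labelled and hybridised to 12 Affymetrix arrays, 1 per piece. The deposited table holds log2 values that the authors made from the array images by RMA (version not given in the sources used here), with values from 0.50 to 12.99. They were used without further scaling or filter on signal. Gene symbols are those of the platform's annotation. Tests covered the 21218 clusters with 1 symbol and not the 1881 with several or the 12457 without any. Scanner images were not used, so detection above background is not known.

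Genotypes were compared within each tissue with limma 3.58.1 in R 4.3.3 (lmFit, eBayes, two-sided, Benjamini-Hochberg over all clusters, threshold 0.05), and the tissues, and the genotype effects between tissues, in 1 model of the 12 arrays. The fits were tested on simulated data. Arrays are labelled as separate samples, and 3 per group limit the precision. Every listed gene with a cluster is given with its level, and fold changes with errors for genes past the threshold or, where under 3 passed, the 3 largest. From wider lists up to 4 genes were chosen by the size of their difference, with *Ighm*, *Jchain* and genes named to show exceptions picked after their values were seen. The genes, the lists and the *Ms4a1* limit of 6 were chosen with earlier results of these data known. Promoters were RefSeq sequences on GRCm38.p6. Alternatives were the shrinkage, a one-way test, renewed quantile normalization, testing every cluster or only bright ones, sex, weights for arrays, array code or *Ms4a1* as a block, 1 model for both tissues, genotypes apart and arrays left out.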

Additional observations from a re-analysis of the deposited data

How the results depend on the processing

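In the ileum no cluster and none of the 28 genes was called under any alternative. With single arrays left out, the median genotype difference of the genes ran from -0.56 to 1.01, that of *Pou2af1* from -0.34 to 1.67 and that of *Bank1* from -0.37 to 1.70, all 3 changing sign: *Pou2af1* fell below 0 without C09 or F09 and *Bank1* without C09, E09 or F09. In the hippocampus the 95 clusters called were 25 with a one-way test, 59 with the filter on dim clusters and 41 in the fit of all 12 arrays, and the 1 gene called was 0 with the one-way test, 0 in the fit of 12 arrays and 2 (*Cd37* and *Cd86*) with trend and robust shrinkage or, again 2, with array weights. The median of the genes there was 0.058 with the dim filter, which removes many of them, and ran from -0.12 to -0.017 with single arrays left out. Between tissues, 9 of the 13 genes left by the dim filter were called higher (44.1% of all clusters) and 6 of 28 on the FIRE +/+ arrays only (29.4%). Without F09 and D09, 2 were called lower and the median was 0.46. In the comparison of genotype effects the 19 clusters called became 65 without F09 and D09, with 1 of the genes among them (*Cd37*), and 12 to 41 with single arrays left out, the highest without D09, and the median of the genes there ran from -0.40 to 1.31. The causes of these shifts were not tested. Of the alternatives for single genes, 392 kept direction and side of the threshold, 45 lost the threshold, 3 gained it and 5 changed sign. Leaving out G09 with F09 and D09 was chosen after seeing the data. No gene had several clusters, so that alternative was not run. No paired analysis was possible because the labels give no replicate numbers or mice.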

Other observations

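G09, a FIRE -/- ileum array, had intermediate values of some of the genes and low values of others. *Cd79a* was at 5.59 and *Pou2af1* at 6.24 on G09, against 3.37 and 5.16 on H09, while *Ms4a1*, *Cr2* and *Pax5* were at 2.32, 2.32 and 3.20, within 0.2 of H09. Among plasma cell genes, G09 was at 9.23 for *Jchain*, against 8.86 on H09, at 4.36 for *Tnfrsf17*, against 3.62, and at 5.04 for *Mzb1*, against 4.64. *Ighm* was at 8.04 on G09 and at 6.54 on H09. In FIRE +/+ ileum *Ighm* was at 8.10 on E09 and 6.36 on C09, and *Cd79a* at 3.87 on E09 and 3.59 on C09. The part of plasma cells in the *Cd79a* signal was not tested.

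Of the 28 genes, *Ly6d* was the only one that parted F09 from D09 by 1 log2 unit or more (5.13 against 7.52). *Glycam1*, a mucin-like ligand of high endothelial venules, parted them the other way, at 7.80 on F09 and 6.16 on D09, and *Tnfsf11*, the cytokine RANKL of the stroma below the follicle epithelium, was at 4.35 on F09 and 5.23 on D09. On other lists, *Jchain* among plasma cell genes and *Cx3cr1*, *Fcrls* and *Csf1r* among microglial genes also lay 1 log2 unit or more apart on the pair. Each of these differences rests on 1 array per genotype.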
